A study of Rattus norvegicus with 8 samples.

Results

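The mevalonate pathway genes and the regulators of their sterol response were followed in BRL-3A, an established cell line that came from rat liver. They were read after an siRNA to lnc19959.2, a long noncoding RNA, had been transfected. The set held 9 genes: the regulators Srebf2 and Insig1 and the enzymes Hmgcs1, Mvk, Pmvk, Mvd, Idi1, Fdps and Fdft1. Its members were all probes, control spots aside, whose gene name in the scanner files was one of these symbols, which gave 16 of the 41012 probes on the array. RNA of cells given the siRNA was run on 4 arrays, and RNA of cells whose transfection is labelled NC on 4 others. Both groups received lipofectamine and were lysed 48 h later. What the NC reagent was is not spelled out in the labels, nor whether the 4 arrays of a group came from separate cultures, so the p-values rest on a spread among arrays that may be technical alone. The level of lnc19959.2 itself was not analysed here.

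The mevalonate pathway turns acetyl-CoA into isoprenoid units, from which cells build cholesterol, ubiquinone, dolichol and the lipid anchors of prenylated proteins. Its genes are known as a block that SREBP2, the product of Srebf2, switches on when sterols in the endoplasmic reticulum run low. INSIG1 acts in the other direction: with enough sterol present it holds the SREBP escort protein in the endoplasmic reticulum, so that SREBP2 is not cut and does not reach the nucleus. In liver this circuit sets how much cholesterol hepatocytes make, and Insig1 is itself a target of SREBP2.

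SREBP2 is known to bind promoters beside the factor NF-Y, whose box reads CCAAT, so the promoters of the members were read for that box and for SREBP2's own elements. RefSeq gives a window from 250 bases before to 50 bases after the gene's start on the GRCr8 assembly, and 7 of the 9 members matched an entry. Srebf2, Insig1, Mvk, Hmgcs1 and Fdps are shown. They are the 2 regulators, the member with the most boxes that also rose in signal, and 2 well measured enzymes that were not called. Capitals mark matches on either strand to CCAAT (seen as its reverse complement where it lies on the opposite strand), to the E-box CACGTG and, with 1 mismatch allowed, to the sterol regulatory element that SREBP2 is known to bind. Each sequence runs 5′ to 3′ on the gene's strand, at Srebf2 chr7:115543057-115543356 (plus strand), Insig1 chr4:8057720-8058019 (minus strand), Hmgcs1 chr2:53382054-53382353 (plus strand), Mvk chr12:47819454-47819753 (minus strand) and Fdps chr2:176804767-176805066 (minus strand).
Srebf2 promoter: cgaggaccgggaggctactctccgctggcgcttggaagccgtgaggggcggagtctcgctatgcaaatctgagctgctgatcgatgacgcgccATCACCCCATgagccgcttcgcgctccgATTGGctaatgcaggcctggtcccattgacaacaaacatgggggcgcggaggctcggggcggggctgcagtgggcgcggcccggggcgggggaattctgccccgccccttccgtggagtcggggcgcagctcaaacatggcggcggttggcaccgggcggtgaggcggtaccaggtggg
Insig1 promoter: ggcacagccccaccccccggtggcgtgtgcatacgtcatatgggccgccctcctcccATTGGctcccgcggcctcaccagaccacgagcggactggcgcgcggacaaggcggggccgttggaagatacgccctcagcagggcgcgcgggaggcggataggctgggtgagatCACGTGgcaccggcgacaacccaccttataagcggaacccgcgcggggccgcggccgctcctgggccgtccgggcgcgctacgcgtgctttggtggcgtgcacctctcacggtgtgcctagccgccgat
Hmgcs1 promoter: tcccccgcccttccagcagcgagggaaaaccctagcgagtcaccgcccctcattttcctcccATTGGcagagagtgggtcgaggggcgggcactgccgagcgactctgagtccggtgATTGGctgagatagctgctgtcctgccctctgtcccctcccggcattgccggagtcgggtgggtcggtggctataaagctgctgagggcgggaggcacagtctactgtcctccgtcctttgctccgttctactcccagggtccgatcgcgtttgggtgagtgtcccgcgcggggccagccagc
Mvk promoter: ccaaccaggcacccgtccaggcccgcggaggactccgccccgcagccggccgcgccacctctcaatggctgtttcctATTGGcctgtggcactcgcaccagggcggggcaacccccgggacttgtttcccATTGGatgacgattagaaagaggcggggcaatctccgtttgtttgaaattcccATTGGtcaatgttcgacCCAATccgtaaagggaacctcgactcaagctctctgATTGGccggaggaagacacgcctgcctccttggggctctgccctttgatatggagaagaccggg
Fdps promoter: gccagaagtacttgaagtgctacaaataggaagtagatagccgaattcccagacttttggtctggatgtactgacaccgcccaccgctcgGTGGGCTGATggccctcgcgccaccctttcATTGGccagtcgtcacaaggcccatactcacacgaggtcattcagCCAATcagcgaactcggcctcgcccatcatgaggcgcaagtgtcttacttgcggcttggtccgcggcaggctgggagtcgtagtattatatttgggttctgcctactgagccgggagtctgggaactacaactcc

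All 7 member promoters held CCAAT on one strand or the other, and so did 37.5% of the 33469 rat promoter windows of the same length. Mvk had 5 copies, Hmgcs1, Mvd, Idi1 and Fdps had 2 each, and Srebf2 and Insig1 had 1 each. The E-box stood only in the Insig1 window, against 6.42% of all windows. The exact sterol regulatory element was in 0 of 7 member windows and in 0.125% of all, and with 1 mismatch it was in 2 of 7, Srebf2 and Fdps, against 1.88% of all. The 3 motifs shared no letters in the windows shown. These matches are letters in a window and were not tested as binding sites.

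Signals are given as log2 of the background-subtracted spot intensity minus the 75th percentile of the same array, so a value of 0 is a probe at that percentile. All 16 member probes were well above background on all 8 arrays, by the scanner software's own mark, and none was saturated, so all 16 entered the test and no array was dropped for any of them. Changes are log2 differences, siRNA minus NC, from limma with its standard error (SE). A call is an adjusted p under 0.05, with Benjamini-Hochberg adjustment over all 24853 probes tested. Where a gene has several probes, the brightest one stands for it, and the level of one probe is not set against that of another.

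Of the 9 genes 2 rose, Mvk and Pmvk, and 0 fell, so 22.2% of the members were called, whereas array-median and spike-in scaling called all 9 higher and normexp background correction 0. Over all 11476 genes tested the share called was 64.6%, with 35.3% called higher and 29.3% called lower. Of the 16 member probes 2 were called higher and 0 lower, against 29.4% higher and 32.2% lower, 61.6% in all, among the probes tested. The median change of the 9 members was 0.02, beside 0.04 over all genes. By their brightest probes, the 7 uncalled members differed between the groups by at most 0.10 in either direction. That range, set by the largest of these changes, held 17.7% of all genes tested. The plot of every array shows the siRNA and NC arrays of most member probes lying over each other.

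**Figure D1:**
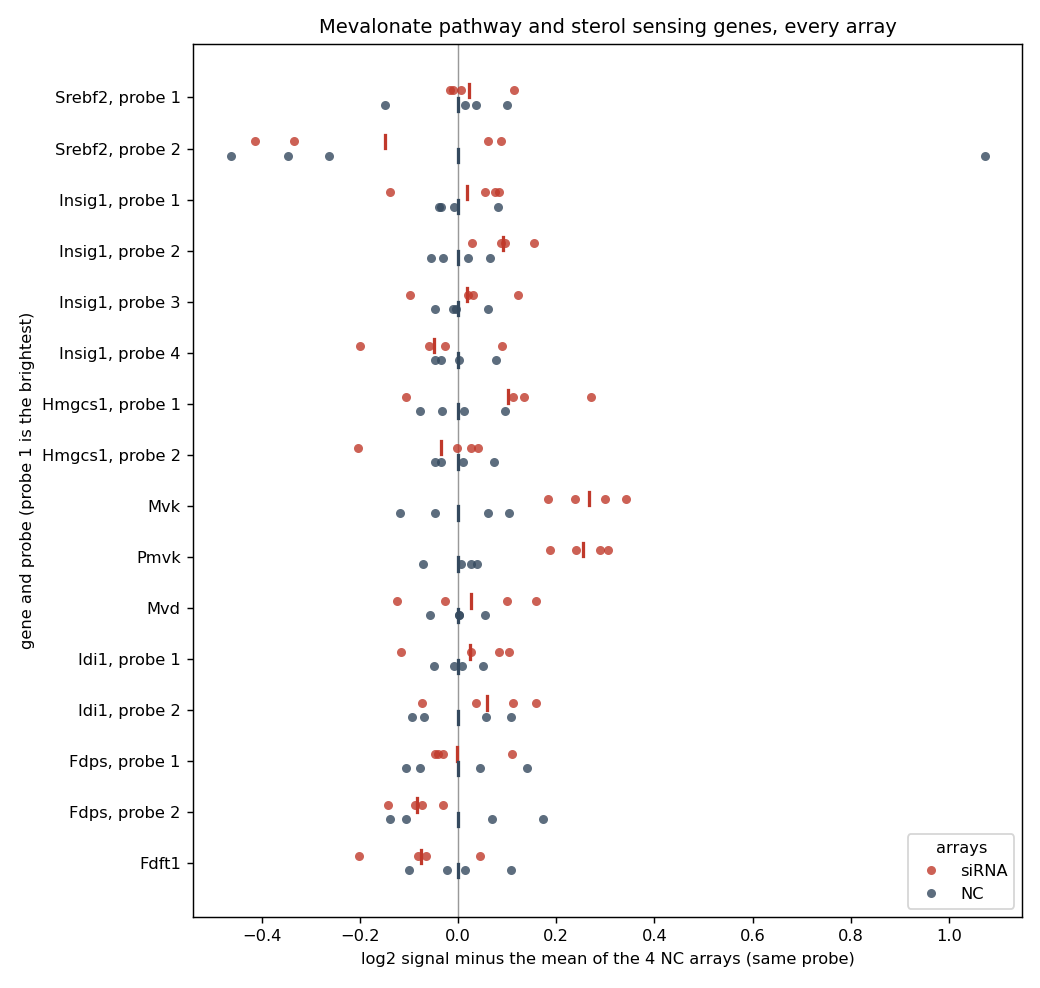
Log2 signal of each of the 16 member probes on every array (x axis), set to the mean of the 4 NC arrays of the same probe, with siRNA arrays in red above NC arrays in dark blue and short bars at the group means. The siRNA arrays lie to the right of all NC arrays for Mvk and Pmvk and overlap them for the other 14 probes, and NC replicate 2 stands far to the right for the second Srebf2 probe.

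Srebf2, the transcription factor of the pathway, was read by a pair of probes, shown because they gave the tightest and the widest spread of the gene's readings. Each has a frame with no stop codon, which alone does not place it in coding sequence. The brighter one lies on rn4 (the build of the array design, per the file headers) at chr7:120548399-120548458, plus strand. The ends of the other, at chr7:120569291-120570130, are 840 bases apart on that build for a 60-base probe, so that its letters are split in the genome.
Srebf2 brighter probe: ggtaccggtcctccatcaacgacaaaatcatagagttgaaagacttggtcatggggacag
Srebf2 second probe: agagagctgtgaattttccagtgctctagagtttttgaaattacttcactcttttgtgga

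The brighter Srebf2 probe read -0.28, -0.41, -0.39 and -0.40 on siRNA replicates 1 to 4, against -0.35, -0.38, -0.54 and -0.29 on NC replicates 1 to 4. The groups overlapped, with NC replicate 3 lowest and siRNA replicate 1 highest. The change was 0.02 ± 0.07 (SE, adjusted p = 0.779), and its 95% interval ran from 0.915-fold to 1.13-fold. The second Srebf2 probe, a dim one, read -2.69, -3.09, -3.17 and -2.67 on the siRNA arrays and -3.02, -1.68, -3.22 and -3.10 on the NC arrays. NC replicate 2 was far above the other 7 arrays, and the change of -0.15 ± 0.34 (SE, adjusted p = 0.721) has an interval from 0.524-fold to 1.55-fold. Without NC replicate 2 the difference between the group means was 0.21.

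Insig1, the sterol-dependent anchor of the SREBP escort protein, was read by 4 probes on chromosome 4 of rn4, all on the minus strand between 2577508 and 2578760. Its brightest probe gave 6.37, 6.36, 6.34 and 6.15 in siRNA cells and 6.37, 6.25, 6.25 and 6.28 in NC cells. The siRNA replicates 1 to 3 and NC replicate 1 stood together at the top and siRNA replicate 4 was lowest, so the groups overlapped. The change was 0.02 ± 0.06 (SE, adjusted p = 0.818), between 0.913-fold and 1.12-fold. The other 3 probes of Insig1 changed by 0.09 ± 0.05, 0.02 ± 0.06 and -0.05 ± 0.07 (SE), with adjusted p of 0.144, 0.795 and 0.556, and also overlapped between the groups.

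Hmgcs1, the cytosolic synthase that makes HMG-CoA, was read by probes at chr2:51754420-51754478 and chr2:51751804-51751863 of rn4, plus strand. The brighter probe gave 5.58, 5.42, 5.44 and 5.20 in siRNA cells, against 5.4, 5.23, 5.32 and 5.27 in NC cells. On 3 of the 4 siRNA arrays it was above every NC array, and on siRNA replicate 4 below all of them. The change of 0.10 ± 0.08 (SE) was not called (adjusted p = 0.320), with an interval from 0.937-fold to 1.23-fold. The second probe, with a change of -0.03 ± 0.07 (SE, adjusted p = 0.673), had the opposite sign.

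Mvk, mevalonate kinase, carries out the first phosphorylation of mevalonate. Its probe, which the file gives no place on rn4, read 0.57, 0.51, 0.61 and 0.45 on the siRNA arrays, against 0.33, 0.22, 0.15 and 0.37 on the NC arrays. Every siRNA array was above every NC array, as for 34.2% of all genes tested, while 27.9% of genes lay wholly below. Mvk rose by 0.27 ± 0.07 (SE, adjusted p = 0.00866), which is 1.20-fold with a 95% interval from 1.08-fold to 1.34-fold. On the unscaled intensities the arrays read 429, 436, 450 and 441 in siRNA cells and 328, 298, 273 and 335 in NC cells.

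Pmvk, phosphomevalonate kinase, adds the next phosphate, and its probe lies at chr2:181664843-181664902 of rn4, plus strand. It read 2.79, 2.74, 2.81 and 2.69 in siRNA cells, against 2.54, 2.43, 2.51 and 2.53 in NC cells. The siRNA arrays lay above all NC arrays and the spread within each group was small beside the gap, with SDs of 0.05 and 0.05 (n = 4 each). Pmvk rose by 0.26 ± 0.05 (SE, adjusted p = 0.00258), or 1.19-fold with an interval from 1.10-fold to 1.29-fold. Its unscaled intensities were 2002, 2052, 2060 and 2081 on siRNA arrays and 1520, 1377, 1398 and 1492 on NC arrays.

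Mvd, the decarboxylase that completes isopentenyl diphosphate, was read at chr19:52722404-52722463 of rn4, minus strand. Its values were 3.87, 3.74, 3.93 and 3.65 in siRNA cells and 3.83, 3.71, 3.77 and 3.77 in NC cells. The NC arrays lay within the range of the siRNA arrays, and the change was 0.03 ± 0.07 (SE, adjusted p = 0.756), from 0.910-fold to 1.14-fold. Idi1, which isomerises that unit, had its brighter probe at chr17:72557224-72557283, minus strand, with 4.59, 4.52, 4.57 and 4.37 in siRNA cells and 4.54, 4.44, 4.48 and 4.50 in NC cells. The siRNA arrays again spanned the NC arrays, and the change was 0.02 ± 0.06 (SE, adjusted p = 0.742), from 0.924-fold to 1.12-fold. The second Idi1 probe, at chr17:72560094-72560498, changed by 0.06 ± 0.07 (SE, adjusted p = 0.502) and overlapped as well.

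Fdps, farnesyl diphosphate synthase, joins the units into the last intermediate shared by sterols and prenyl groups. Its probes are shown because they lie next to each other in the genome and read the gene on separate letters. Each has a frame with no stop codon, which alone does not place it in coding sequence. They lie at chr2:181169679-181170179 and chr2:181170192-181170336 of rn4, minus strand. These stretches are 501 and 145 bases long for probes of 60 bases, so that the letters of both are split in the genome.
Fdps brighter probe: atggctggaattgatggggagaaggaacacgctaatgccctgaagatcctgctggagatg
Fdps second probe: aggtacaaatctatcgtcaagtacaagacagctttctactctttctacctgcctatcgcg

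The brighter Fdps probe read 6.90, 6.75, 6.74 and 6.74 in siRNA cells, against 6.71, 6.68, 6.83 and 6.93 in NC cells. The groups overlapped over nearly their whole range and the change was 0.00 in size (-0.00 ± 0.07, SE, adjusted p = 0.979), between 0.891-fold and 1.12-fold. The second probe read 6.33, 6.26, 6.38 and 6.32 in siRNA cells and 6.30, 6.27, 6.47 and 6.58 in NC cells, a change of -0.08 ± 0.08 (SE, adjusted p = 0.374). On both Fdps probes NC replicate 4 was the highest of the 8 arrays.

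Fdft1, squalene synthase, takes farnesyl diphosphate into the sterol branch and was read at chr15:42436506-42436565 of rn4, minus strand. It gave 0.62, 0.61, 0.73 and 0.49 in siRNA cells, against 0.80, 0.67, 0.59 and 0.70 in NC cells. The lowest array was siRNA replicate 4 and the highest NC replicate 1, with the other 6 in between. The change was -0.08 ± 0.07 (SE, adjusted p = 0.366), with an interval from 0.849-fold to 1.06-fold. Across the 7 uncalled genes the 95% intervals of the brightest probes stayed between 0.849-fold and 1.23-fold.

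Whether Mvk and Pmvk moved apart from the other members was compared on the difference of log2 signals between 2 genes within each array, which no scaling of whole arrays can change. Of 36 pairs, 12 reached the smallest p that 4 against 4 arrays allow, 0.0286 in an exact two-sided permutation test. They were Mvk and Pmvk, each against Srebf2, Insig1, Mvd, Idi1, Fdps and Fdft1, with differences in size from 0.23 to 0.34. Adjusted over the 36 pairs, these p-values became 0.0857, so 0 pairs passed, and 21 pairs at the smallest p would have been needed for any to pass. Mvk and Pmvk set against each other member cannot make that many pairs, so the test could not decide the question. The 2 genes were also singled out by their calls on these same arrays, so the differences are a description. Mvk and Pmvk differed from each other by 0.01 (exact permutation p = 0.914), and Hmgcs1 differed from Pmvk by -0.15 (exact permutation p = 0.0571).

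**Figure D2:**
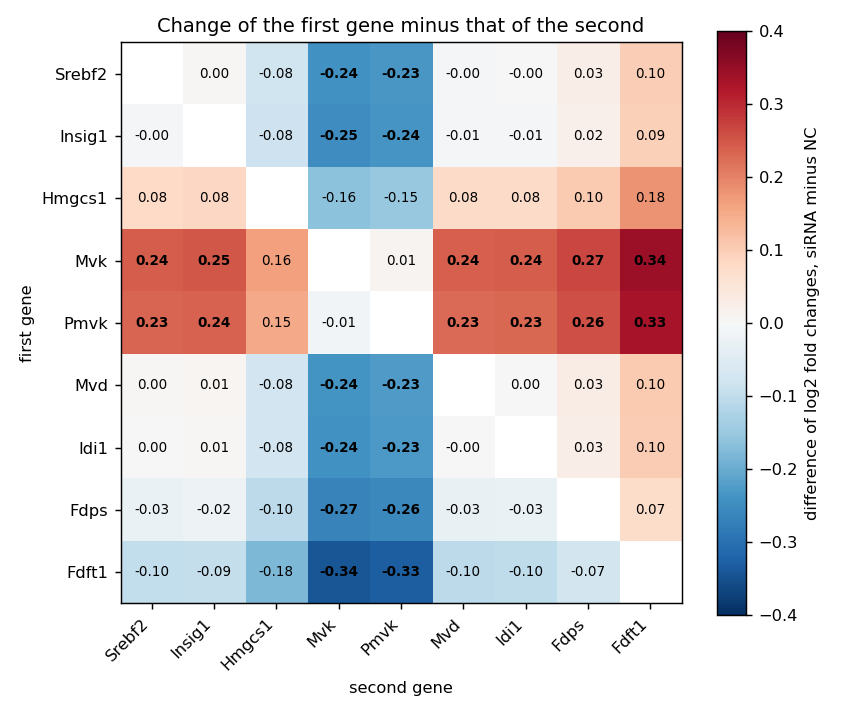
Difference between the log2 fold changes (siRNA minus NC) of each pair of genes, the gene of the row minus the gene of the column, with bold figures where the exact permutation test reached its smallest p. The rows of Mvk and Pmvk are 0.16 and 0.15 against Hmgcs1 and between 0.23 and 0.34 against the members other than Hmgcs1 and each other. Mvk and Pmvk differ from each other by 0.01.

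The scaling between arrays sets the level against which the members are read. On the siRNA arrays the 75th percentile of intensity was 289 to 322, against 245 to 261 on the NC arrays, while 55.4% to 59.1% of spots were well above background on siRNA arrays and 57.3% to 64.1% on NC arrays. Quantile, cyclic loess and bright-probe percentile scaling all called Mvk and Pmvk higher and no other member. Scaling to the array median and to the spike-in controls called all 9 members higher, but these settings also moved the median of all genes to 0.35 and 0.58, with 59.8% of genes called higher and 15.4% lower under the median and 72.3% higher and 10.2% lower under the spike-ins. The member medians there were 0.34 and 0.57. Relative to the median of all genes, the 7 other members lay between -0.11 and 0.07 and Mvk and Pmvk at 0.23 and 0.22, figures that a constant per array, as in these scalings, cannot change. Quantile scaling, which can, put Mvk and Pmvk at 0.21 and 0.11 and the 7 others between -0.15 and -0.01, and cyclic loess put them at 0.20 and 0.14 with the others again between -0.15 and -0.01. With normexp background correction neither was called, at 0.34 (adjusted p = 0.0857) for Mvk and 0.48 (adjusted p = 0.115) for Pmvk, and both were called again, at 0.28 (adjusted p = 0.00153) and 0.26 (adjusted p = 0.000895), once spots below their local background were left out, 10 of which were on NC replicate 1.

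**Figure D3:**
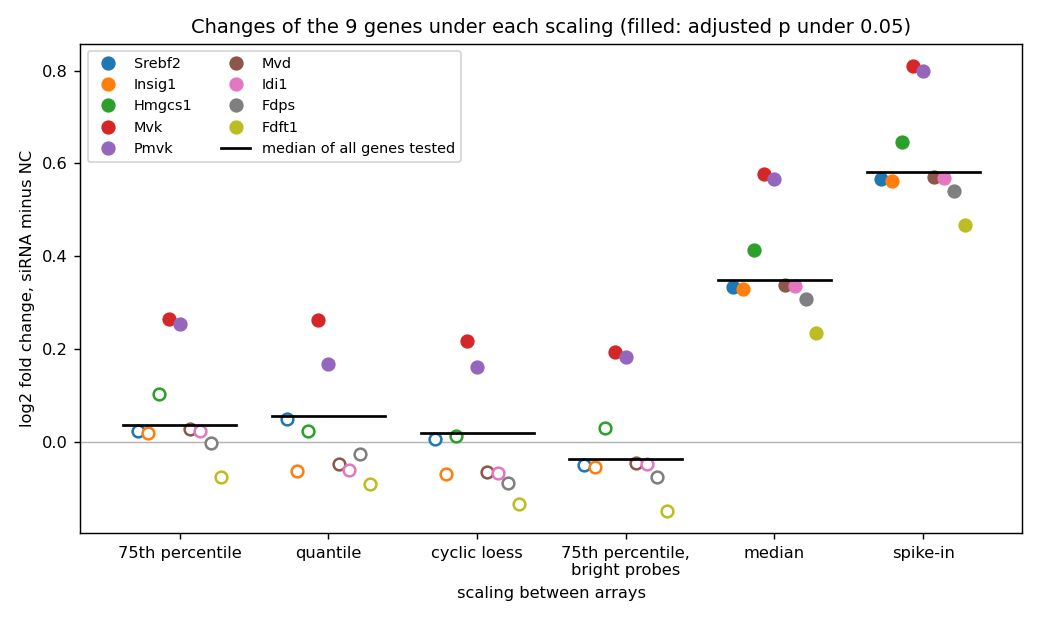
Log2 fold change, siRNA minus NC, of the 9 genes under 6 scalings between arrays (x axis), filled where the adjusted p is under 0.05, with a black line at the median of all genes tested. The set moves with that line, and Mvk and Pmvk lie above it under every scaling drawn.

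The siRNA arrays shared 1 slide and scan and the NC arrays another, and so group cannot be told apart from slide or scan. Of 10 hepatocyte markers 7 were above background on at least 1 array, but Alb, Ahsg and Tat were well above background on 0 of 8 arrays, so the label liver describes where the line came from. The summed level of these markers, in units of the array's 75th percentile, was 4.88 to 6.87 on siRNA arrays and 0.991 to 1.17 on NC arrays. Cyp2e1 made up most of that sum in siRNA cells, with a log2 level of 2.33 ± 0.23 there and -2.61 ± 0.64 in NC cells (SD, n = 4 each), whereas Asgr1 was above background on 0 of 4 siRNA arrays and on 4 of 4 NC arrays. Of 9 fibroblast and stellate markers 8 had a probe, Acta2 having none, and 7 were above background somewhere. They summed to 418 to 449 on siRNA arrays, against 346 to 375 on NC arrays. The sums were 5.87 to 6.79 on siRNA arrays and 6.83 to 7.73 on NC arrays for leukocyte markers (3 of 5 above background), 3.12 to 4.27 and 1.56 to 2.13 for endothelial markers (4 of 5), and 3.52 to 4.27 and 1.23 to 1.51 for cholangiocyte markers (3 of 4). Within these lists, Kdr and Krt7 rose by 1.64 ± 0.19 and 1.75 ± 0.11 (SE). Vwf and Tek were above background on 0 of 4 siRNA arrays and on 4 of 4 NC arrays. Sox9 was so on 1 of 4 siRNA arrays and on 3 of 4 NC arrays. Cdh5, unlike Vwf and Tek, was above background on 4 of 4 siRNA arrays and on 0 of 4 NC arrays. Col3a1 rose by 2.66 ± 0.07, Col1a2 by 0.61 ± 0.05 and Hnf4a by 0.83 ± 0.22 (SE). Cd68 fell by 2.40 ± 0.09 and Pdgfrb by 0.50 ± 0.11 (SE), and Pdgfrb turned to 0.04 with spike-in scaling. By their brightest probes Fgb, Col1a1, Des, Vim and Cd14 were not called. The dimmest kept Col1a1 probe rose by 0.66 (limma, adjusted p = 3.39e-05). The mean of the Cd14 probes rose by 0.23 (limma, adjusted p = 0.0131), though its dimmest probe was not called. Adgre1, Cd163, Pecam1, Epcam and Lum were above background on 0 of 8 arrays. In RNA of whole cultures, fewer cells of a type and less RNA per cell cannot be told apart, and the part of these shifts in the changes of Mvk and Pmvk was not tested.

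The neighbours of the pathway were counted by list, beside 35.3% of all genes higher, 29.3% lower and 64.6% called in all. With normexp those shares were 10.7% higher and 7.16% lower.

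Upstream of the pathway, enzymes of acetyl-CoA supply and ketone body metabolism had 4 of 6 tested members higher, 1 lower and 1 not called (83.3% called, 64.6% over all genes), with a median change of 0.36. Acat1, the mitochondrial thiolase, rose by 0.95 ± 0.08 (SE, adjusted p = 5.47e-05), the cytosolic ATP-citrate lyase Acly by 0.39 ± 0.06 and the citrate carrier Slc25a1 by 0.38 ± 0.08. These 3 kept their sign under the 6 scalings. Quantile, cyclic loess and bright-probe scaling gave 3 higher and 1 lower. Median scaling gave 5 and 1 (59.8% of all genes were higher there), spike-in scaling 5 and 0 (72.3%) and normexp 1 and 0 (10.7%). Acss1 was too dim to test.

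Downstream, the enzymes from squalene to cholesterol had 8 of 12 members higher, 1 lower and 3 not called (75% called, 64.6% over all genes), with a median change of 0.27. Dhcr7, the last reductase of one branch, had a log2 signal of 3.50 ± 0.10 in siRNA cells and 2.82 ± 0.17 in NC cells (SD, n = 4 each), a rise of 0.68 ± 0.10 (SE, adjusted p = 0.000503). Sqle, the squalene epoxidase, rose by 0.40 ± 0.07 and the isomerase Ebp by 0.38 ± 0.07. Msmo1, a methyl sterol oxidase, fell by 0.28 ± 0.07, but turned to 0.03 under the array median and 0.26 under the spike-ins. Hsd17b7, Cyp51 and Lss had changes of -0.18, 0.05 and -0.03 and were not called. Quantile and cyclic loess scaling called 6 of the 12 higher and 1 lower, median scaling 10 and 0 (59.8% of all genes were higher there), spike-in scaling 12 and 0 (72.3%) and normexp 1 and 0. No test set this list against the members.

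Of the isoprenoid genes, which use the pathway's products outside sterol synthesis, 6 of 18 tested were higher, 6 lower and 6 not called, with a median of 0.00. The 66.7% called is near the 64.6% of all genes. Fntb, the beta subunit of farnesyltransferase, rose by 0.87 ± 0.07 (SE, adjusted p = 2.97e-05). Icmt and Rce1, which process the prenylated end of proteins, rose by 0.42 ± 0.05 and 0.32 ± 0.04. Trit1, which puts an isopentenyl group on tRNA, fell by 0.65 ± 0.07. All of these kept their sign under the 6 scalings, whereas the lower genes Dhdds, Pggt1b and Rabggtb turned positive with spike-in scaling and Dhdds also with median scaling. Median scaling called 12 higher and 3 lower (59.8% of all genes were higher there), spike-in scaling 14 and 1 (72.3%) and normexp 1 and 2 (10.7%).

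Of the genes of SREBP processing and sterol sensing, 5 of 15 tested were higher, 4 lower and 6 not called, with a median of 0.06. Here too the 60.0% called is near the 64.6% of all genes. Nfyb, a subunit of NF-Y, rose by 0.60 ± 0.06 (SE), while Nfya and Nfyc had changes of 0.01 and 0.04 and were not called. Srebf1, which encodes the SREBP of fatty acid synthesis, rose by 0.49 ± 0.05 and Scap, the escort protein, by 0.44 ± 0.05. Erlin1, an endoplasmic reticulum protein that restrains SREBP, fell by 0.96 ± 0.12. Mbtps2, which makes the second cut that frees SREBP, was called lower at -0.71 ± 0.11, but was above background on only 2 of 4 siRNA arrays, against 4 of 4 NC arrays, and stood at -0.35 with quantile scaling and at -0.17, not called, with spike-in scaling. Mbtps1, which makes the first cut, rose by 0.39 ± 0.14. The fall of Insig2, the other anchor, by 0.20 ± 0.07 turned to a positive value with median and spike-in scaling, as did that of Faf2. With the mean of a gene's probes 7 of the 15 were called higher and 4 lower, and with the dimmest probe 8 and 4. Of all genes 34.4% and 32.3% were called higher there. Median scaling called 11 higher and 2 lower (59.8% of all genes were higher there), spike-in scaling 13 and 1 (72.3%) and normexp 2 and 1 (10.7%).

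Among genes of sterol efflux and the oxysterol response, 3 of 11 tested were higher, 2 lower and 6 not called, with a median of 0.08, so that 45.5% were called, against 64.6% of all genes. Mylip, a ubiquitin ligase induced by oxysterols, rose by 0.49 ± 0.05 (SE). Stard4, a sterol carrier, rose by 0.27 ± 0.07 and Osbpl5 by 0.39 ± 0.13. Ch25h, which makes an oxysterol, was called lower at -2.47 ± 0.60, with 3 of 4 siRNA arrays and 4 of 4 NC arrays above background. The difference was -1.51 with normexp and -1.60 without background correction. Soat1, which esterifies cholesterol, fell by 0.22 ± 0.08 and turned positive with median and spike-in scaling. Those scalings gave 8 and 10 higher (59.8% and 72.3% of all genes were higher there), each with 1 lower. With normexp 0 were higher and 1 lower, against 10.7% and 7.16% of all genes.

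**Figure D4:**
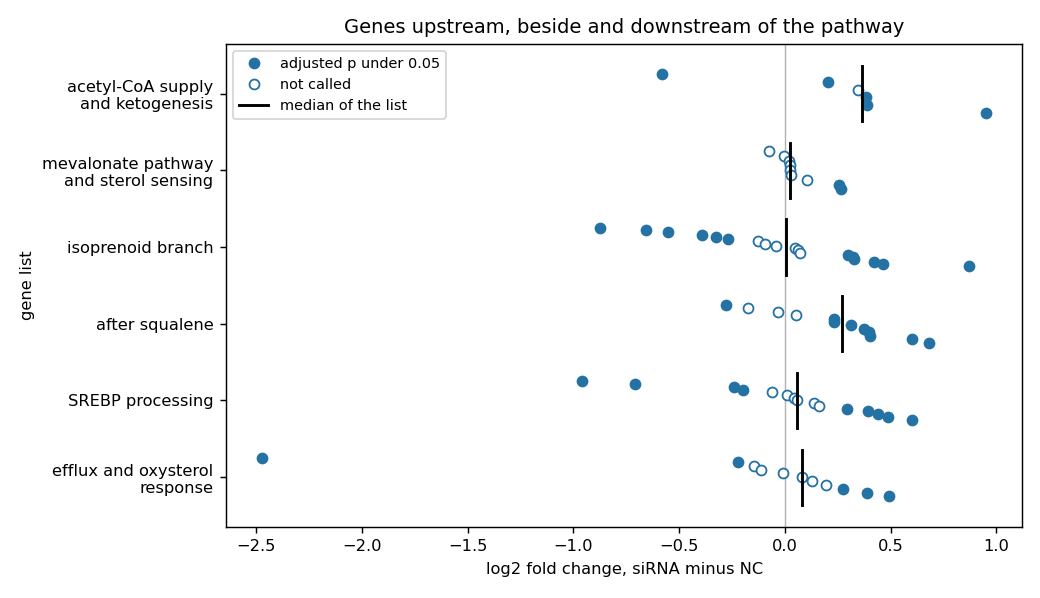
Log2 fold change, siRNA minus NC (x axis), of each tested gene of the mevalonate set and of 5 lists around it (rows), filled where the adjusted p is under 0.05, with a black bar at each list's median. The 9 members lie between -0.08 and 0.27, while the lists hold genes from -2.47 to 0.95.

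Genes whose brightest probe ran most like Hmgcs1 and Insig1 over the 8 arrays were looked up by Pearson's r among the 11476 genes, as a description in which all points share the same arrays. For Hmgcs1 they were Tmem184c (r = 0.980), Ppm1b (0.976) and Zdhhc12 (0.95), the 3 genes tested with r over 0.95. For Insig1 they were LOC499136 (r = 0.959), Ppa1 (0.945) and Ddx21 (0.945), and 1 gene had r over 0.95. None of these 6 is one of the 9 members.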

How the data were processed

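Each RNA sample was labelled with Cy3 and hybridised to 1 Agilent whole rat genome array. The deposited spot intensity came from version 12.0.3.1 of Agilent's Feature Extraction, per the file headers, and is background-subtracted within the array and not scaled between arrays; the submitters' processing notes name version 12.0 and limma. The authors' deposited table of log2 values holds 86 probes and 0 of the 16 member probes, and was not used.

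The log2 intensity minus the array's 75th percentile was computed, control spots and outlier spots (129 to 174 per array) were left out, and spots of a probe were averaged. Probes well above background on at least 3 of 4 arrays of a group were kept (24853). limma 3.58.1 in R 4.3.3 compared siRNA with NC, with Benjamini-Hochberg adjustment over these probes. Pairs of members were compared by exact permutation tests. A gene was named through its accession and RefSeq (GRCr8) where possible, otherwise by the file's symbol, and 18128 probes stayed unnamed. The number of arrays limits the precision. On simulated data of 24853 probes with 50 changed at each size, a far smaller share than was called here and so a stricter threshold, the fit recovered 8% of log2 changes of 0.25, 40% of 0.5 and 78% of 1, with 5 false among 116 calls.

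The members and lists were chosen with earlier results of these data known, and the lists do not cover every gene of a process. The rule for names took all 9 members, up to 4 called genes per list with the smallest adjusted p, and 3 genes most like Hmgcs1 and Insig1. Other list genes were named after their values were seen. Some list genes, though counted, are not reported here by name. Alternatives were other scalings, background corrections, filters, probes, model settings, a replicate block and leaving out each array.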

Additional observations from a re-analysis of the deposited data

Results flagged for a closer look

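In 4 of the 32 groups of 4 arrays looked at (16 probes, 2 groups), 1 array stood apart from the other 3 by Dixon's criterion, which chance meets in about 1 in 20 groups. The brighter Srebf2 probe read -0.28 on siRNA replicate 1, against -0.41 to -0.39 on the other siRNA arrays. The second Srebf2 probe read -1.68 on NC replicate 2, with the other NC arrays at -3.22 to -3.02. The brightest Insig1 probe read 6.15 on siRNA replicate 4, where the other siRNA arrays lay at 6.34 to 6.37. The brighter Fdps probe read 6.90 on siRNA replicate 1, with 6.74 to 6.75 on the other siRNA arrays. Read by their brightest probes, Srebf2, Insig1 and Fdps were not called with or without these arrays. For the second Srebf2 probe, siRNA minus NC was -0.15 with all arrays and 0.21 without NC replicate 2, the second value with no test.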

How the results depend on the processing

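Of the 9 members, 2 were called higher and 0 lower under each setting tried except median scaling (9 higher), spike-in scaling (9) and normexp (0). Of all genes, 59.8%, 72.3% and 10.7% were called higher under those settings, in that order, against 35.3% in the main comparison. Leaving out each array in turn gave 2 to 2 higher and 0 to 0 lower. The pair test passed 0 pairs under each setting, which says nothing of stability, since 21 of 36 pairs would have to reach the smallest p. Mvk and Pmvk kept their sign under each setting and lost the call with normexp alone. That setting called 1225 genes higher and 822 lower over the whole array, against 4053 and 3359 in the main comparison. With normexp the median change of the members was 0.32, beside -0.01 over all genes, though 0 members were called. Once spots below their local background were left out, these medians were 0.08 and 0.02. The highest local background on NC replicate 1 was 21662, against 29 to 209 on other arrays. Changes near 0 turned sign. Fdft1 turned to 0.24 with median scaling, 0.47 with spike-in scaling and 0.089 with normexp. Fdps turned to 0.31, 0.54 and 0.27 under the same settings and to 0.0026 without background correction. Idi1, Insig1 and Mvd turned to -0.067, -0.070 and -0.065 with cyclic loess, to -0.060, -0.062 and -0.048 with quantile scaling and to -0.048, -0.054 and -0.046 with the bright-probe percentile. With the dimmest probe, Hmgcs1, Insig1 and Srebf2 turned to -0.035, -0.049 and -0.15. Srebf2 also turned to -0.063 with the mean of its probes, -0.013 without background correction, -0.056 with normexp, -0.0081 with normexp without spots below background and -0.050 with the bright-probe percentile. Leaving out arrays moved Idi1 between -0.0017 and 0.071, Insig1 between -0.0034 and 0.071, Mvd between -0.017 and 0.078, Srebf2 between -0.027 and 0.056 and Fdps between -0.040 and 0.045. Median and spike-in scaling shift the change of every probe by the same amount, 0.31 and 0.54 at the median probe, which gives the turns of Fdft1 and Fdps there. For the other turns, beyond fewer spots or arrays, the cause was not tested. Replicate numbers, which are also slide positions, were shared by the groups, but deviations of same-numbered arrays correlated at 0.01, 0.03, -0.03 and 0.21, and only number 4 correlated best with itself, so the numbers were not taken to pair the arrays. With the replicate block, 2 members were still called higher (Mvk adjusted p = 0.0346, Pmvk adjusted p = 0.0115), and 3939 genes were called higher and 3329 lower; of the efflux and oxysterol list the block called 2 higher, against 3 without it. The authors' deposited table was not run as an alternative because it holds none of the member probes.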
